A study of Mus musculus with 2 samples.

Results

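Genes of tissue macrophages, 7 for surface receptors and 3 for the chains of the complement protein C1q, were followed in the liver of the E12.5 mouse embryo. They were taken by gene symbol (Csf1r, Marco, Mrc1, Cd163, Timd4, Vsig4, Clec4f, C1qa, C1qb and C1qc), with no rule on measured values. Earlier results of these data were known when they were chosen. All 10 were on the array, with 15 probe sets whose annotation names that gene alone, out of 18193 genes and 34945 such probe sets. RNA was measured on Affymetrix GeneChip mouse expression arrays, 1 for mesothelial cells and 1 for liver cells, both from wild type C57Bl6 embryos. The mesothelial cells form the epithelium on the surface of the liver and were isolated by FACS through the surface protein podoplanin (Pdpn), after the organ had been dispersed with trypsin-EDTA. The liver cells are described by the labels no further, so it is not known whether they still held cells carrying Pdpn. The sources used here do not say how many embryos gave each sample, and a free-text label that speaks of much younger embryos was set aside.

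Fetal liver macrophages arise from yolk sac and fetal blood precursors, and they are the forerunners of the Kupffer cells of the adult organ. They depend on signals through the receptor Csf1r, take up dead cells and particles through scavenger receptors, and sit at the centre of islands of maturing red cells, whose expelled nuclei they engulf. C1q is assembled from A, B and C chains that each carry a collagen-like stalk and a globular head, and in most tissues macrophages are its main source.

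With 1 array a group there was no replicate check, no test was run, and all values describe these 2 arrays. Differences are log2 values of the mesothelial array minus the liver array, where 1 is a 2-fold difference. A probe set was above the floor where it reached the median of all probe sets on at least 1 array, 65.8 in mesothelial cells or 42.3 in liver cells. Genes and probe sets above the floor that differed by 2-fold or more are called mesothelial-high or liver-high, by fold alone. The control level is the highest of 27 probe sets for bacterial transcripts, 16.2 and 10.5. The median difference over all genes was 0.66, so the mesothelial array read 1.58-fold brighter for the typical gene. Differences are also given after subtracting that median, as an excess over the typical gene. Over genes above the floor alone the median was 0.90, so an excess is smaller against those genes. In bulk RNA, fewer macrophages and less RNA per macrophage cannot be told apart. Pdpn, the gene of the sort, was 38.8-fold higher in mesothelial cells, which checks the labels. All 9 mesothelium markers above the floor were mesothelial-high, and Msln lay under the floor.

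The macrophage genes did not move as a block. Csf1r, Marco, Clec4f and the 3 C1q genes were mesothelial-high, Mrc1 and Timd4 differed by less than 2-fold, and Cd163 and Vsig4 lay under the floor. Of the 10 genes, 8 passed the floor and 6 were mesothelial-high, on a background of 45.4% of all genes above the floor. The number that were liver-high was 0, on a background of 3.83%. These gene backgrounds also apply to the counts as deposited of the gene lists further on. By probe set, 13 of 15 passed the floor and 10 were mesothelial-high, on a background of 41.2%. Of these 10 probe sets, that of Clec4f and 1 of Marco passed the floor through the mesothelial array alone and so had to differ. The median difference over the 10 genes was 1.09, an excess of 0.42 over the typical gene, and the members ranged from -1.10 to 2.45. These numbers depended on how the arrays were scaled, as given further on.

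**Figure D1:**
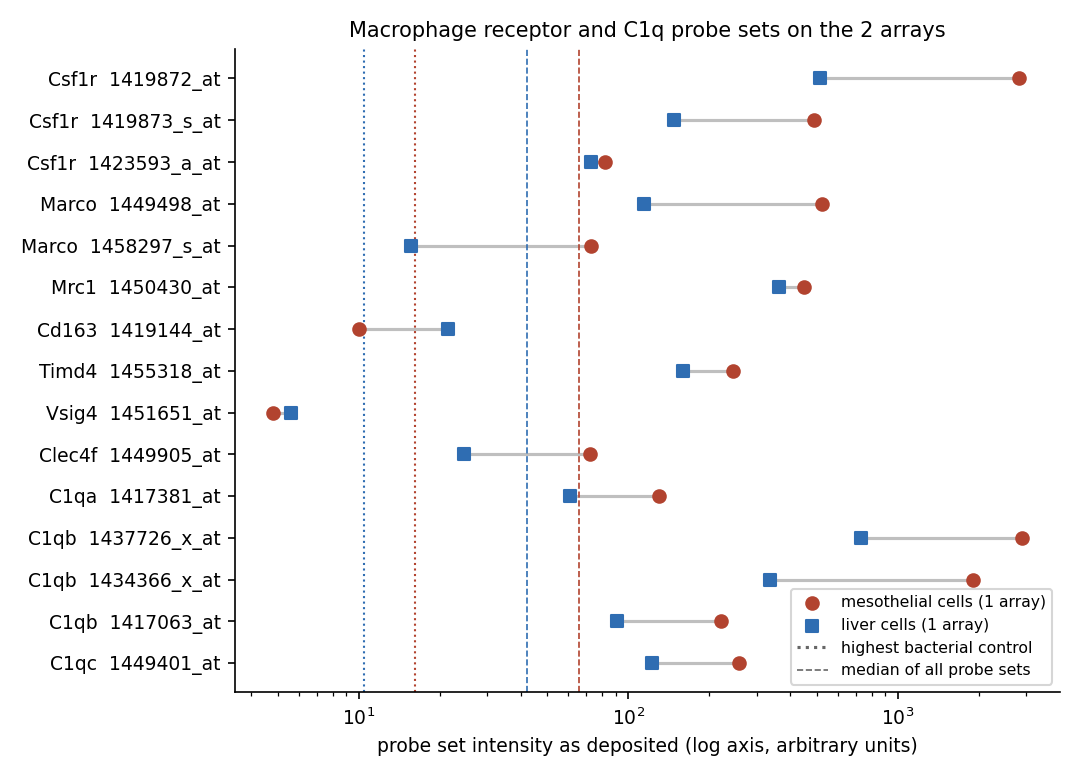
Intensity of each of the 15 member probe sets as deposited, on a log axis, with a circle for the mesothelial array and a square for the liver array; dotted lines mark the highest bacterial control and dashed lines the median of all probe sets of each array. In 13 of 15 rows the circle lies to the right of their square, and for Cd163 and Vsig4 it lies to the left, with both readings under the dashed lines.

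Csf1r, the receptor tyrosine kinase that macrophages need to survive and divide, had 3 probe sets that did not agree. The first, 1419872_at, read 2823 on the mesothelial array and 516.3 on the liver array, 5.47-fold higher. A second, 1419873_s_at, read 490.9 against 148.4, 3.31-fold higher. The last, 1423593_a_at, read 81.7 against 72.8, 1.12-fold higher. The gene thus differed by 2.45, 1.73 or 0.17 depending on the probe set, an SD of 1.17 between them, where the pooled SD between probe sets of one gene was 0.70 over 5323 genes. The first and second of these lay above the median of all genes and the last below it. The brightest probe set, which stands for the gene here, had a difference larger than that of 93.3% of all genes.

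Of the ligands of this receptor, Csf1 went the same way and Il34 lay at about the control level. Csf1, the main growth factor for macrophages, read 247.2 on the mesothelial array and 47.7 on the liver array, 5.18-fold higher. Its other 3 probe sets differed by 1.59, 1.36 and 0.28, all of them positive as deposited. Il34, the other ligand, read 11.1 in mesothelial cells, under the control level, and 12.8 in liver cells, just over it. Ligands and signalling genes downstream of Csf1r had 12 of 14 measured and 10 above the floor, of which 5 were mesothelial-high and 0 liver-high. Their median was 0.73, an excess of 0.06 over the typical gene. The kinase gene Syk read 599.4 against 165.3 and the phospholipase gene Plcg2 514.7 against 132.2, 3.63-fold and 3.89-fold higher. The 4 probe sets of Syk did not agree, running from -0.44 to 2.10 with an SD of 1.29, and Plcg2 had 1. Cbl, a ubiquitin ligase that ends receptor signalling, went furthest the other way, at 189.2 against 316.3, a difference of -0.74, while its probe sets reached 0.42.

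Marco, a scavenger receptor with a collagen-like stalk that binds bacteria and particles, had the most even readings. Its probe set 1449498_at read 525.2 on the mesothelial array and 114.1 on the liver array, and 1458297_s_at read 72.7 and 15.6. These are 4.60-fold and 4.66-fold differences, 2.20 and 2.22 on the log2 scale, with an SD of 0.01 between the pair. The liver reading of 1458297_s_at lay under the floor, at 1.49 times the control level. After quantile normalization the 2 differences were 1.39 and 1.71. The excess over the typical gene was 1.54, and the difference was larger than that of 91.0% of all genes. The stretch before the start of Marco is shown because the gene was among the 2 members that stayed mesothelial-high under each of the 5 scalings compared further on. It comes from RefSeq on GRCm38.p6 (chr1:120505025-120505274, minus strand), with capitals for the PU box described with the C1q genes.
Marco: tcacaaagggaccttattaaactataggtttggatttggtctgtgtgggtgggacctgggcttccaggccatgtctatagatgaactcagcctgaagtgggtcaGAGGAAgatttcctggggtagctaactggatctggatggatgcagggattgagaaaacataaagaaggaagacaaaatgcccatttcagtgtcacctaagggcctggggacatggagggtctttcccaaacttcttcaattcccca

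Mrc1 and Timd4 did not share the excess of Marco. Mrc1, the mannose receptor, a lectin that clears glycoproteins and is also made by sinusoidal endothelium, read 447.4 on the mesothelial array and 362.4 on the liver array. That is 1.23-fold, a difference of 0.30, or -0.36 after subtracting the all-gene median. The gap of 1.90 between the differences of Marco and Mrc1 is not changed by a constant scale factor between the arrays. Timd4, a receptor for phosphatidylserine on dying cells, read 244.0 against 160.1, a difference of 0.61, or -0.06 after the same subtraction. Both signs turned negative under each of the other 4 scalings. Both genes were well over the control level on each array, at least 15.1 times for Timd4 and 27.6 times for Mrc1.

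The other receptors, which mark Kupffer cells and other resident macrophages, lay near or under the floor. Clec4f, a lectin of mouse Kupffer cells, read 72.3 on the mesothelial array and 24.5 on the liver array, 2.95-fold higher, from 1 probe set. The liver reading was 2.33 times the control level and lay under the floor. Vsig4, the complement receptor by which Kupffer cells catch opsonised bacteria, read 4.8 and 5.6, under the control level on both arrays, so no fold is given. Cd163, the receptor for haemoglobin bound to haptoglobin, read 10 in mesothelial cells, under the control level, and 21.4 in liver cells, 2.04 times that level. It was therefore at least 1.32-fold higher in liver cells. It was the only member that was detected on the liver array and not on the mesothelial array, and it too lay under the floor.

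The C1q genes all read higher on the mesothelial array. C1qa read 129.9 on the mesothelial array and 60.7 on the liver array, 2.14-fold higher, and C1qc 257.6 and 122.1, 2.11-fold higher. C1qb had 3 probe sets, and 1417063_at read 220.8 against 90.8, 2.43-fold higher. These 3 probe sets, 1 for each chain, lay within 0.20 of each other, from 1.08 to 1.28, a spread that a constant scale factor leaves as it is. The other probe sets of C1qb differed more. The probe set 1437726_x_at read 2898 against 731.4 and 1434366_x_at read 1904 against 337.0, 3.96-fold and 5.65-fold higher. Names ending in _x_at mark probes that can match other transcripts, and the SD between the C1qb probe sets was 0.61. The excess over the typical gene was 0.43 for C1qa, 0.41 for C1qc and 1.32 for C1qb by its brightest probe set, beside 1.54 for Marco.

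In the RefSeq annotation C1qb, C1qc and C1qa are neighbours in that order on chromosome 4. The stretches before C1qb and C1qc are shown because these neighbours differed in the same direction. Both are on the minus strand of GRCm38.p6, at chr4:136886201-136886450 and chr4:136892937-136893164, and end just before the first annotated base of the gene. Capitals mark the PU box (GAGGAA, on either strand), which the macrophage factor PU.1 binds, or the MAF half-site (TGCTGA, on either strand), which the factor Maf binds.
C1qb: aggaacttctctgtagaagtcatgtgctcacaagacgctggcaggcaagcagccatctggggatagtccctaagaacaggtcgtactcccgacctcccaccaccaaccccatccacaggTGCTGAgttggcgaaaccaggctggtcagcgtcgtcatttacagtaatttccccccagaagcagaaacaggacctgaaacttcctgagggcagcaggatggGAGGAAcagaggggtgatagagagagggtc
C1qc: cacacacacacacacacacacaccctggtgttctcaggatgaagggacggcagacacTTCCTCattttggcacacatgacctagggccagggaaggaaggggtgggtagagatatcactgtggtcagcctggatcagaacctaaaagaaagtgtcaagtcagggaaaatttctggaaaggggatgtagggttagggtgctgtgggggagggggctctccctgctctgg
Both hold 1 PU box, and C1qb also holds 1 MAF half-site. Promoters of 8 members, those other than Csf1r and C1qa, were searched over the first 250 bases of their RefSeq entry, which for Cd163, Timd4 and C1qc run past the first annotated base of the gene. A PU box stood in 5 of them (Marco, Mrc1, Vsig4, C1qb and C1qc), and in 23.3% of 32851 promoters in the table. A MAF half-site stood in 3 (Timd4, Clec4f and C1qb), and in 16.1% of all. Both motifs were chosen after these promoters had been read, so the counts beside those shares are no test of either motif. Mrc1 held 3 PU boxes and Marco 1.

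The stretch before Mrc1 is also shown (GRCm38.p6, chr2:14229164-14229413, plus strand). It holds 3 PU boxes (opposite strand, in capitals), and a link between PU boxes and the differences was not tested. Matches are of letters in this window, and no binding was measured here.
Mrc1: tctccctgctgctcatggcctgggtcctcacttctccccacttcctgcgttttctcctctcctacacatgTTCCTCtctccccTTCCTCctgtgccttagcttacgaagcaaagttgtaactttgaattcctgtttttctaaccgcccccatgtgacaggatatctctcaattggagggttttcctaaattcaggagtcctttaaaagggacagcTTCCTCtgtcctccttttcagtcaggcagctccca

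The counts depended on the scaling of the arrays. Centring each array on its median lowered the differences by 0.64, and 3 of 8 genes above the floor (Csf1r, Marco and C1qb) were then mesothelial-high, on a background of 23.9%. The same count was 3 after centring on reference genes (background 18.5%) and 3 after quantile normalization (background 20.7%). It was 2, Csf1r and Marco, after centring on the hybridisation controls (background 14.6%), a scaling added after the data were seen. The number of members that were liver-high was 0 under each of these 4 scalings, where the backgrounds were 9.26%, 13.0%, 11.1% and 17.9%. Over all genes above the floor the split of higher against lower in mesothelial cells was 5457 to 460 as deposited and 2867 to 1113 after centring on the median. It was 2227 to 1561 with reference genes, 2488 to 1334 by quantiles and 1751 to 2146 with the hybridisation controls. C1qa and C1qc kept a positive sign throughout but came down to 0.02 and 0.00 on the hybridisation controls. The third Csf1r probe set, 1423593_a_at, turned negative under all 4. Centring on the hybridisation controls removed the difference between the array medians of 18 probe sets, 1.08. The median of their paired differences was 0.02, and removing that instead left 6 members mesothelial-high. The split over all genes was then 5358 to 475, so the result from these controls depended on how they were summarised.

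**Figure D2:**
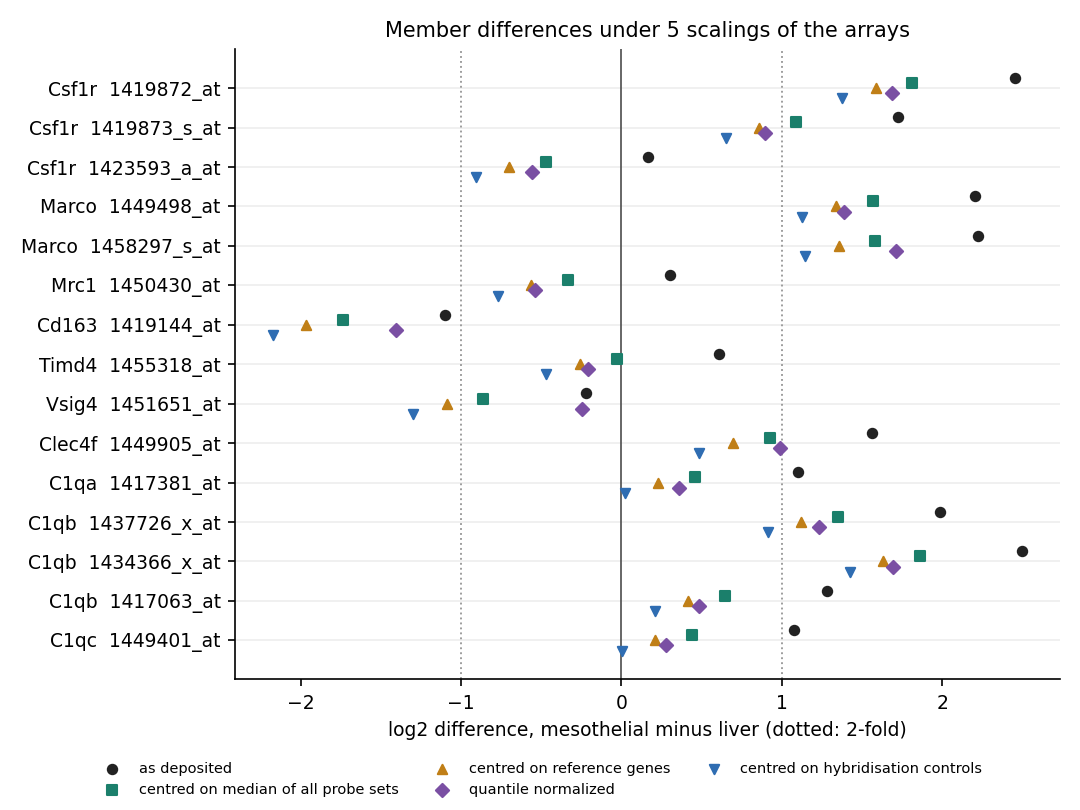
Log2 difference (mesothelial minus liver) of each of the 15 member probe sets under 5 scalings of the arrays, 1 symbol a scaling, with dotted lines at 2-fold. Both Marco probe sets, Csf1r 1419872_at and C1qb 1434366_x_at stay to the right of the 2-fold line under all 5, C1qa and C1qc come close to 0, and Cd163 and Vsig4 stay to the left of 0.

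**Figure D3:**
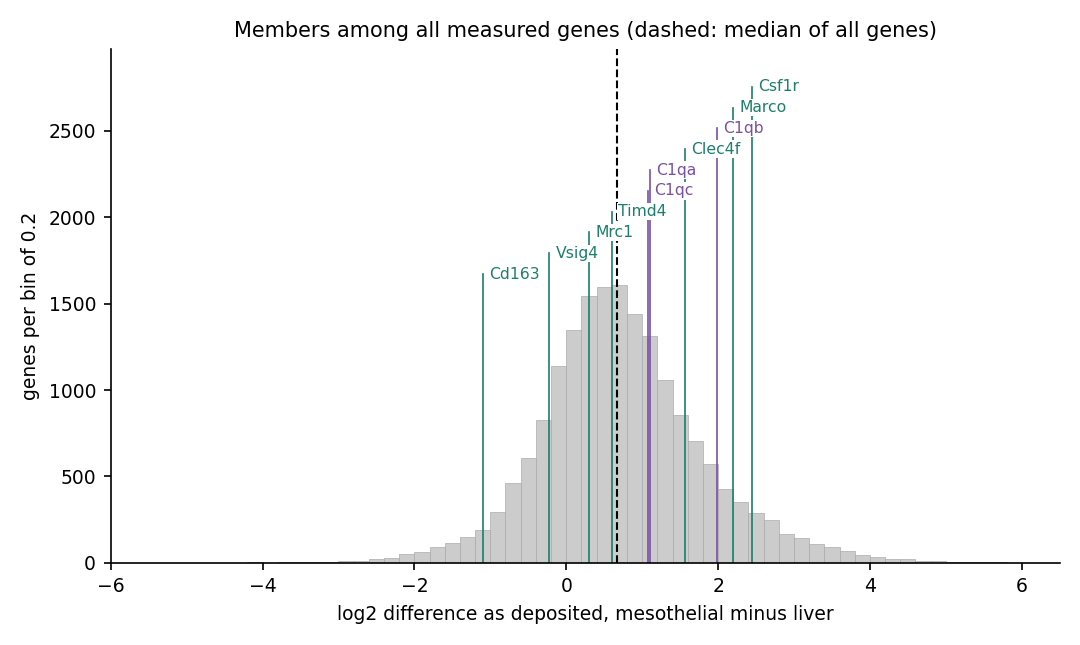
Histogram of the log2 difference (mesothelial minus liver, as deposited) of 18193 genes in bins of 0.2, with the 10 member genes as vertical lines and the median of all genes, 0.66, as a dashed line. Marco and Csf1r stand on the right shoulder of the histogram, Timd4 and Mrc1 near its centre, and Cd163 on the left.

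Other genes of macrophages differed in both directions. All 20 surface and lysosome genes on a list kept apart from the members were measured and 16 were above the floor, with 6 mesothelial-high and 1 liver-high. Their median was 0.27, or -0.39 after subtracting the all-gene median, and it was positive under 1 of the 5 scalings, where the members' median was positive under 5. Adgre1, which encodes the F4/80 antigen, read 353.2 against 121.8, 2.90-fold higher. Cd5l, a secreted scavenger protein of tissue macrophages, read 499.9 against 98.8, 5.06-fold higher, a difference of 2.34 beside 2.20 for Marco and 2.45 for Csf1r. The integrin gene Itgb2 and the lysosomal gene Laptm5 were 3.31-fold and 3.32-fold higher. The value of Laptm5 is from an _x_at probe set, and its 5 probe sets ran from 0.11 to 1.73. Cd68, a lysosomal glycoprotein widely used to mark macrophages, read 257.9 and 258.5. In the difference between arrays the brightest Csf1r probe set exceeded Cd68 by 2.45, and C1qa exceeded it by 1.10. The other Csf1r probe sets differed between the arrays by 1.73 and 0.17. Folr2, a folate receptor of resident macrophages, went the other way at 30.3 against 78.5, 2.59-fold higher in liver cells. Cx3cr1, a chemokine receptor of macrophage precursors, read 33.9 against 43.6. Its other probe set read 12.6 and 10.2, under the control level on both arrays. Ptprc, the common leukocyte antigen gene, gave no usable direction, since one probe set read 137.0 against 59.7 and the other 25.8 against 157.6.

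Factors that set macrophage identity lay on both sides of the median of all genes. Of 13 listed, 12 were measured and all 12 were above the floor, with 4 mesothelial-high and 0 liver-high. Their median was 0.58, or -0.08 after the same subtraction. Spi1, which encodes PU.1, read 58.2 against 48.2, a difference of 0.27 that turned negative under other scalings. Id3, an inhibitor of helix-loop-helix factors that Kupffer cells require, read 863.7 against 229.9, 3.76-fold higher. Maf was 2.98-fold higher, though its 6 probe sets had an SD of 0.82, and Cebpb differed 2.43-fold, its other probe set by 0.13 on the log2 scale. Tfec, a factor of the Mitf family, went furthest the other way, at 144.5 against 194.8, or -1.10 after the subtraction.

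Genes for the uptake of dead cells and expelled nuclei and for iron handling had a median above that of all genes. All 15 were measured and 14 were above the floor, with 11 mesothelial-high and 0 liver-high, on backgrounds of 45.4% and 3.83%. After median centring 6 were mesothelial-high, on a background of 23.9%. The list median was 1.21, an excess of 0.55 over the typical gene, and its sign held under each of the 5 scalings. The calls rest on the brightest probe set, and other probe sets of some called genes ran as low as -0.80. Dnase2a, the lysosomal nuclease with which macrophages digest red cell nuclei, read 730.7 against 76.4, 9.56-fold higher from 1 probe set. The name of that probe set ends in _x_at, so it can match other transcripts. Gas6, a ligand that bridges dying cells to their receptors, read 465.0 against 50.7, 9.17-fold higher. Its other probe set read 24.0 against 18.1, under the floor on both arrays (SD 1.97). The receptor gene Axl read 455.9 against 77.7, 5.87-fold higher. Its other probe set read 4.8 against 4.3, under the control level on both arrays (SD 1.69). The smallest difference above the floor was that of the scavenger receptor gene Cd36, 0.49. Many of these genes are not restricted to macrophages.

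A mixed list of classical pathway partners of C1q, complement regulators and receptors had a median close to that of all genes. Of 16 listed, 13 were measured, all above the floor, with 5 mesothelial-high and 1 liver-high. Their median was 0.72, an excess of 0.06 over the typical gene but under the 0.90 of genes above the floor. C1ra and C1s1, the proteases that join C1q to form the first complement component, read 93.5 against 55.4 and 217.0 against 136.8. Both differences, 0.76 and 0.67, were smaller than that of any C1q probe set and turned negative under some of the other scalings. Serping1, the inhibitor of those proteases, read 809.0 against 175.1, 4.62-fold higher, and C2, the next protease of the pathway, 455.4 against 130.3, 3.50-fold higher. Lrp1, an endocytic receptor through which C1q-coated material is taken up, read 1800 against 142.4, 12.6-fold higher. C3ar1, a receptor for the fragment C3a on myeloid cells, read 75.2 against 166.9, 2.22-fold higher in liver cells.

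Markers of other cell types moved between the same arrays, and their part in the member differences was not tested. Sinusoidal endothelium, which also makes Mrc1, had 13 of 13 markers measured and 12 above the floor. As deposited, 6 were mesothelial-high and 0 liver-high, on backgrounds of 45.4% and 3.83%. After median centring they numbered 3 and 2, on backgrounds of 23.9% and 9.26%. The list median was 0.75, an excess of 0.08 over the typical gene, and was positive under 2 of the 5 scalings. Summed as deposited, intensity was 4458 on the mesothelial array and 2043 on the liver array. Stab2 read 695.4 against 201.4, Flt4 891.1 against 212.2 and Clec4g 134.4 against 26.9, but Lyve1 read 432.8 against 389.8, a difference of 0.15 beside the 0.30 of Mrc1. Gpr182 read 89.8 against 136.9. The second probe set of Clec4g read the other way, at -0.17 (SD 1.76). No marker of this list was at control level on both arrays. Megakaryocyte markers, with 8 of 10 measured, were all mesothelial-high, with a median of 2.48 and a summed intensity of 24792.5 against 6858. Gp1bb was 9.60-fold, Rgs18 9.39-fold and Pf4 2.79-fold higher.

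Monocyte and granulocyte markers differed in both directions as deposited. Of 12 measured and 10 above the floor, 7 were liver-high and 1, Ctsg, mesothelial-high, with a median of -1.62 and a summed intensity of 3530 against 7326. S100a9 read 89.4 against 2919, 32.7-fold higher in liver cells. Mpo, Elane, Prtn3 and Csf3r, like Ctsg, read higher on the mesothelial array as deposited. Mpo and Prtn3 differed by less than 2-fold, and Elane and Csf3r lay under the floor. After median centring this list had 0 mesothelial-high and 7 liver-high markers. Its median was positive under 0 of the 5 scalings. Erythroid markers, 9 of 10 measured, were liver-high for 7 and mesothelial-high for 0, with a summed intensity of 14264 against 40724. Hepatoblast markers had a median of 0.63, close to that of all genes, and a summed intensity of 68054 against 44859, and Alb read 15683 against 12832. Mesothelium markers had a median of 4.23, beside the 1.09 of the macrophage members, and summed to 24306.5 against 3652.

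**Figure D4:**
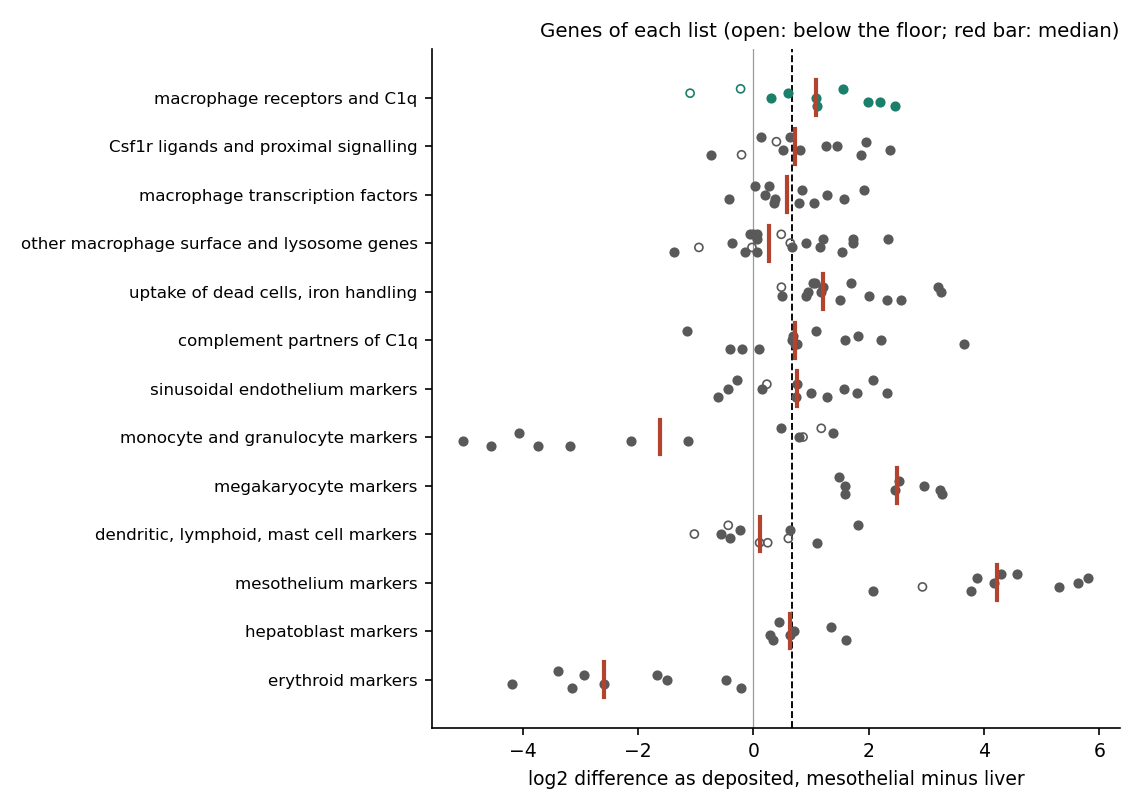
Log2 difference (mesothelial minus liver, as deposited) of each gene, 1 circle a gene, for the 10 members (top row) and 12 lists of other genes; open circles lie under the floor, red bars are list medians and the dashed line is the median of all genes. The members' median, 1.09, lies to the right of the dashed line, between erythroid markers at -2.60 and mesothelium markers at 4.23.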

How the data were processed

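The authors deposited 1 intensity per probe set and array. The values run from 3.2 to 27470 and were therefore read as linear. Per the submitters' processing notes RMA and Partek were used, with no version or order given, and no source used here gives the scaling between the arrays, whose quantiles differ. Per the labels, 20 ng of total RNA was amplified and labelled with biotin, which can alter ratios between transcripts, and the labels give no second amplification. Log2 was taken here. The files hold no detection flags, and the number of arrays limits the precision.

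Gene names are those of the platform annotation. Of 45101 probe sets, 64 were controls, 34945 had 1 gene symbol, 932 had several and 9160 had none. All 10 members matched RefSeq by gene ID. Each gene is represented by its brightest probe set over both arrays, which left 12018 genes above the floor. The floor had been worded as a test of the higher of the 2 values against its own array. Read literally that keeps 11905 genes; reading it as either array was chosen after the counts under both had been seen. Folds against a value at or under the control level are bounds, written as at least. Members, gene lists and scalings were chosen with earlier results of these data known, and the motifs after the promoters had been read.

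Genes named outside the members were set by a rule: in each of 13 lists up to 3 genes above the floor with the largest difference and the one furthest the other way, plus Csf1, Il34, Spi1, Adgre1, Cd68, Cx3cr1, Ptprc, C1ra, C1s1, Stab2, Lyve1 and Pdpn; a further gene of the rule is not reported here. Msln was added after its values were seen. Alternatives were other probe set rules, scalings, floors, a 4-fold threshold and a control-level floor. The steps were tested on simulated data. Python 3.11.15, numpy 2.4.6 and pandas 2.3.3 were used.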

Additional observations from a re-analysis of the deposited data

How the results depend on the processing

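No paired analysis was possible because each group had 1 array. As deposited, 10 member probe sets and 6 member genes were mesothelial-high. Member probe sets and genes numbered 6 and 3 after median centring, 5 and 3 after centring on reference genes, 5 and 3 by quantiles, 5 and 3 with the floor at the 75th percentile and 4 and 2 at a 4-fold threshold. Added after the data were seen, centring on hybridisation controls gave 4 and 2, and removing the median paired difference of reference genes 6 and 3. Removing the median paired difference of the hybridisation controls, added at the same stage, left 10 and 6. The literal reading of the floor, also added later, left 10 and 6. Leaving out probe sets ending in _x_at or _s_at gave 6 probe sets. Without a floor, 1 member probe set and so 1 member gene, Cd163, was liver-high.

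The member median of 1.09 became 0.45 after median centring, 0.42 with the paired reference difference removed and 0.22 on reference genes. It became 0.32 by quantiles and 0.012 on hybridisation controls, but 1.07 with the paired difference of those controls removed. Over all genes, higher against lower numbered 2867 and 1113 after median centring, 2227 and 1561 on reference genes, 2488 and 1334 by quantiles and 1751 and 2146 on hybridisation controls. They numbered 3276 and 185 at the higher floor and 2772 and 1147 with the paired reference difference removed. At 4-fold they numbered 1915 and 129 of the 12018 genes above the floor. How many genes passed the higher floor is not given here, so the counts at it, members included, have no share beside them. Without a floor 757 were lower. Ptprc reversed to -0.71 with the median over its probe sets, which read in opposite directions. A difference was taken to have moved where it changed by more than the pooled SD of 0.70. No member probe set at least 2-fold apart changed sign under any alternative. Cd163, Vsig4 and Il34 are limited by signal over background.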

Other observations

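Markers of dendritic, lymphoid and mast cells differed in both directions. Of 12 listed, 11 were measured and 6 were above the floor, with 2 mesothelial-high and 0 liver-high. Their median was 0.11. Cpa3, a protease of mast cells, read 177.4 against 50.2, 3.53-fold higher in mesothelial cells. Zbtb46, a transcription factor gene of dendritic and endothelial cells, read 862.7 against 399.9, 2.16-fold higher, and its 4 probe sets ran from -0.20 to 1.11 (SD 0.70). Cd74, the chaperone of class II antigen presentation, read 33.5 against 49.6, and Kit, a receptor of progenitor and mast cells, read 381.7 against 247.3.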
